A study of Rattus norvegicus with 10 samples.

Results

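Vgf, the gene of a neuroendocrine granule protein, was followed in isolated rat pancreatic islets that had received a virus carrying the transcription factor Nkx6.1 or a control virus. It was found by its symbol in the platform annotation, which names 1 probe for it among the 26962 probes of the array, so Vgf is 1 of 12762 named genes and rests on 1 probe. Islets of male Sprague-Dawley rats were cultured in 8 mM glucose, exposed for 18 h to adenovirus at 5E9 particles per ml, and kept for another 60 h. The virus carried hamster Nkx6.1 (5 samples) or bacterial β-galactosidase (bGAL, 5 samples), in both cases behind the CMV promoter, which is not specific to β cells, and the 5 replicates of a group came from separate islet isolations. Each sample was a pool of about 200 islets. Cy5-labelled islet RNA and a Cy3-labelled rat reference, the same for every sample, were hybridised together on a 2-colour array.

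VGF is a secretory polypeptide that neurons and endocrine cells store in dense-core granules. Prohormone convertases cut it into smaller peptides, some of which are known to raise insulin secretion or to protect β cells in rodent islets. The gene was first found as a target of nerve growth factor in rat PC12 cells, and the factor CREB, acting through a cyclic AMP response element in its promoter, is a known regulator there.

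The deposited values were read as log2 ratios to the reference, a scale that was inferred, and every fold given here rests on it. All 17744 probes with 10 values had a median of 0 (tolerance 0.001). Each probe was thus taken as centred on its own median over the 10 samples. A value of 0 is therefore the middle of the 10 samples and not a level, levels of different genes cannot be compared, and the islet identity of the samples cannot be checked by marker level. A positive value was read as more transcript in islets than in the reference. No source states that direction, its basis in the values was weak, and every direction given here rests on it. The arrays fell into 2 sets by the share of probes without a value. Array set 1 lacked between 27.3% and 32.5% of the probes and held Nkx6.1 replicate 1 and bGAL replicates 1, 2, 3 and 5. Array set 2 lacked between 0.816% and 9.13% and held the other 4 Nkx6.1 samples with bGAL replicate 4. Array set and virus were thus largely aligned. Nkx6.1 replicate 2 had the widest spread, with an interquartile range of 1.09 against 0.347 to 0.58 in the other 9 samples. The rat Nkx6-1 probe had a log2 difference of −0.56 (limma adjusted p = 0.546), and no source states whether it detects the hamster transcript.

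The promoter of rat Vgf is shown because it carries the response element through which the gene is known to be switched on. The window lies on the minus strand of chromosome 12 at chr12:25276971-25277270 (RefSeq, build GRCr8), within the gene's annotated span of 25274004 to 25281803, and holds 250 bases before and 50 bases after an annotated start. Capitals mark, from left to right, the full cyclic AMP response element (CRE, TGACGTCA), an E-box (CACGTG) and overlapping matches on both strands to the TATA motif (TATAAA).
Vgf promoter: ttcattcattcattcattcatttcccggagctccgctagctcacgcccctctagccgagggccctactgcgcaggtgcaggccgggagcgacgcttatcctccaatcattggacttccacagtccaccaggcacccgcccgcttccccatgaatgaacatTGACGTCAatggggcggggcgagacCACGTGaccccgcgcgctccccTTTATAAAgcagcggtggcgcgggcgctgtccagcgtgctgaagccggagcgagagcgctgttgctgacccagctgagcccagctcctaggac

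The CRE began at −90 relative to that start, the E-box at −65 and the TATA match on the gene's strand at −41. Both strands were searched. The CRE was found in 1.83% of 33469 RefSeq promoter windows of the same length, the E-box in 6.42% and the TATA motif in 14.2%. No match was found for the AP-1 motif TGANTCA (7.33% of windows) or for TTAATT, an A/T core of the kind that homeodomain proteins bind (12.4% of windows). These are matches of letters only, and binding was not measured.

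The main comparison asked whether Vgf transcript differed between islets with the Nkx6.1 virus and islets with the control virus. Vgf stood at −0.65, −1.09, −0.52, −0.95 and −1.15 in bGAL replicates 1 to 5. It stood at 0.96, 3.30, 0.84, 0.52 and 0.98 in Nkx6.1 replicates 1 to 5. Every Nkx6.1 sample lay above every bGAL sample, and the lowest Nkx6.1 sample was 1.04 above the highest bGAL sample on the log2 scale, a 2.05-fold gap. Nkx6.1 replicate 2 was far above the rest of its group, whose other 4 samples spanned only 0.46, less than the 0.63 spanned by the bGAL samples.

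Vgf averaged 1.32 ± 1.12 in the Nkx6.1 group and −0.87 ± 0.28 in the bGAL group (SD, n = 5 each). Their difference of 2.19 ± 0.48 (limma estimate ± SE), a 4.57-fold higher mean with Nkx6.1, did not pass the threshold over all 9974 genes tested (limma adjusted p = 0.194, unadjusted p = 0.00115). In that fit 15 genes passed at an adjusted p under 0.05, which is 0.15% of those tested, and 11 of them (0.11%) were higher. Vgf ranked 58 of 9974 by p, and 9.65% of genes had an unadjusted p under 0.05. Only 0.842% of the tested genes had a larger positive difference. The exact two-sided permutation test of the 10 Vgf values gave p = 0.00794, the smallest that 5 samples against 5 can give. Groups without overlap were not rare, however: 191 of 9617 genes with 10 values (1.99%) had their 5 Nkx6.1 values above their 5 bGAL values, and 1.82% had them below.

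**Figure D1:**
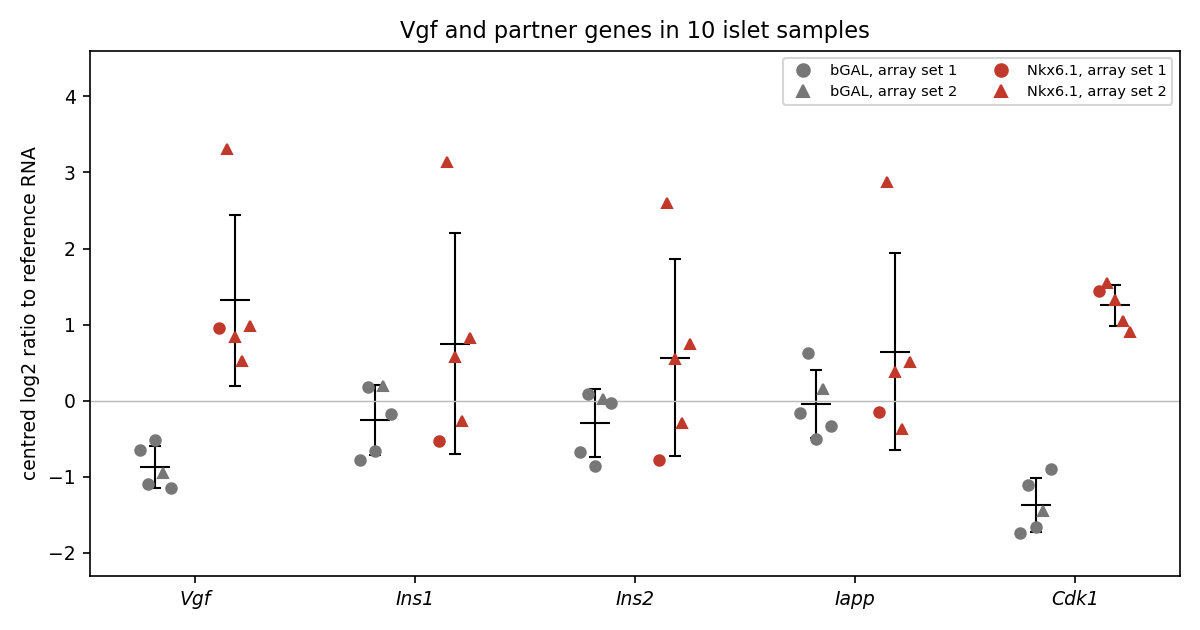
Centred log2 ratio of Vgf and of Ins1, Ins2, Iapp and Cdk1 in each of the 10 samples (grey, bGAL; red, Nkx6.1; circles, array set 1; triangles, array set 2), with horizontal bars for group means and vertical bars for SD (n = 5). The groups are apart for Vgf and Cdk1 and overlap for the 3 hormone genes, and 1 Nkx6.1 sample, replicate 2, stands at 3.30 for Vgf and 3.14 for Ins1.

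The call on Vgf turned on Nkx6.1 replicate 2, the sample in which Vgf was highest. Without it the difference was smaller, 1.70 ± 0.18 (SE), a 3.24-fold higher mean, and it passed (limma adjusted p = 0.00903), with 0.361% of genes called in that fit. Quantile normalisation between arrays brought that sample from 3.30 to 2.31, and Vgf passed with a difference of 2.34 (limma adjusted p = 0.0269, with 0.271% of genes called). Scaling of the arrays to a common spread brought it to 1.53, and Vgf passed with 2.01 (limma adjusted p = 0.0238, with 0.231% called). With array weights, which gave 5.79% of genes as called, the difference was 1.69 (limma adjusted p = 0.00694). After either normalisation the groups still did not overlap. The difference was 1.81 within array set 1 (1 Nkx6.1 sample against 4 bGAL samples) and 2.36 within array set 2 (4 against 1). With the array set as a term it was 2.09 ± 0.63 (SE) and did not pass (limma adjusted p = 0.928, with 0.0301% of genes called), and without replicate 2 as well it was 1.77 (adjusted p = 0.0519).

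**Figure D2:**
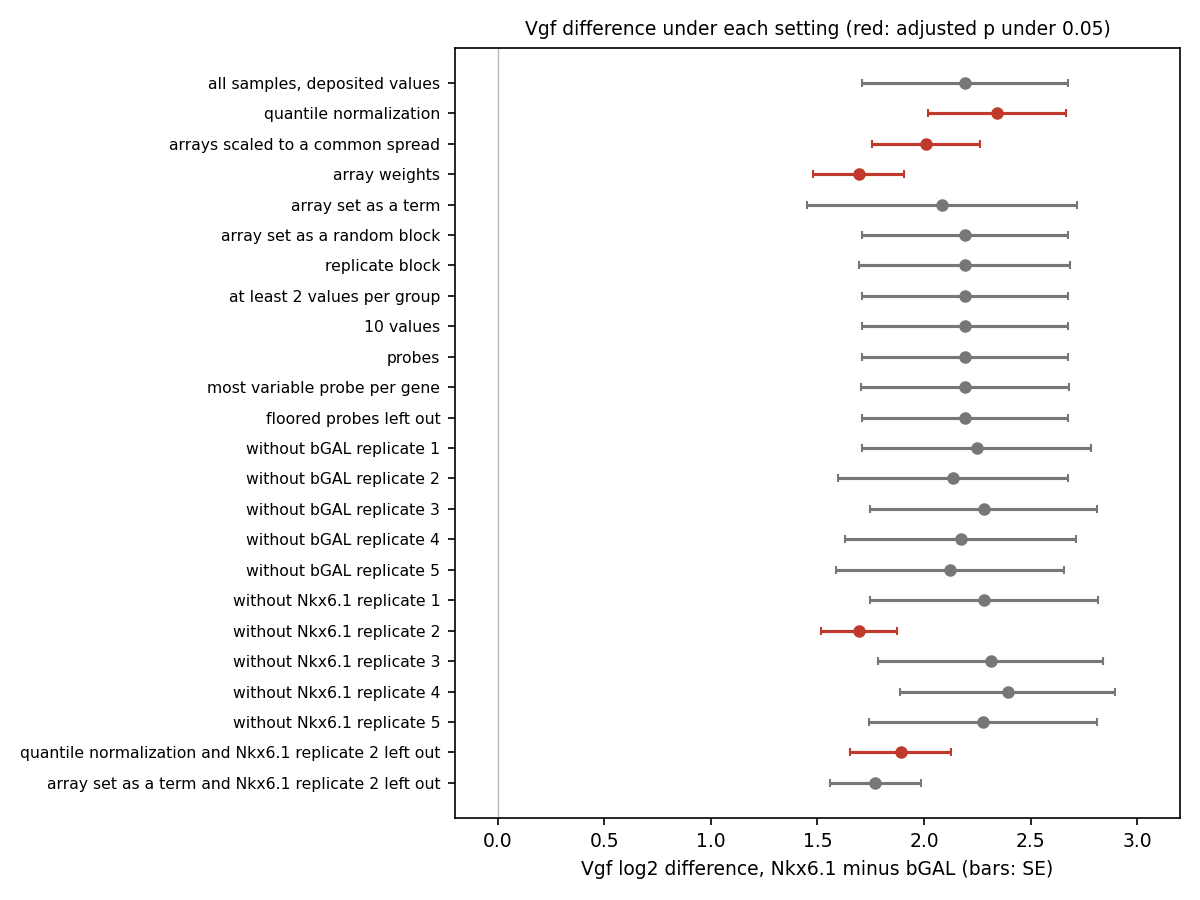
Log2 difference of Vgf, Nkx6.1 minus bGAL (points, limma estimates; bars, SE), with all samples and under each alternative setting, red where the adjusted p was under 0.05. The estimates lie between 1.69 and 2.39, all above 0, and those in red include the setting without Nkx6.1 replicate 2.

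The second question was whether Vgf followed the β-cell hormones, with which it shares the secretory granule. Insulin 1 (Ins1) stood between −0.78 and 0.19 in the bGAL samples. It stood between −0.53 and 0.83 in 4 Nkx6.1 samples and at 3.14 in replicate 2, so the groups overlapped. Its log2 difference was 0.9993 ± 0.627 (SE, limma adjusted p = 0.574), that of insulin 2 (Ins2) 0.85 and that of amylin (Iapp), the islet amyloid peptide, 0.69, none past the threshold. Replicate 2 was the highest sample for both, at 2.60 for Ins2 and 2.88 for Iapp. Without it the differences were 0.40 for Ins1, 0.35 for Ins2 and 0.13 for Iapp, against 1.70 for Vgf. With the array set as a term they were 0.35, 0.23 and 0.32, against 2.09 for Vgf.

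Over the 10 samples, Pearson's r between Vgf and Ins1 was 0.78 (permutation p = 0.0205), between Vgf and Ins2 0.74 (permutation p = 0.0276) and between Vgf and Iapp 0.75 (permutation p = 0.0361). Adjusted over these 3 relations, each permutation p was 0.0361. Spearman's rho was 0.42, 0.35 and 0.37 (permutation p = 0.231, 0.329 and 0.296, adjusted p = 0.329 for each). With the 2 samples farthest from the Vgf median left out, Nkx6.1 replicate 2 and bGAL replicate 5, r was 0.30 with Ins1, 0.28 with Ins2 and 0.0014 with Iapp (exact permutation p = 0.448, 0.479 and 0.997, n = 8). Without replicate 2 alone it was 0.30, 0.22 and 0.13 (exact permutation p = 0.415, 0.546 and 0.727, n = 9), so the relation to the hormones rests on that sample. With the array set means removed, r was 0.68, 0.61 and 0.68 for Ins1, Ins2 and Iapp (exact permutation within sets, adjusted p = 0.191 for each). With the group means removed it was 0.80, 0.74 and 0.85 (exact permutation within groups, p = 0.152, 0.166 and 0.123), and without replicate 2 it turned to −0.28, −0.36 and −0.13 (exact permutation p = 0.466, 0.327 and 0.758, n = 9).

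The fourth partner was Cdk1, a kinase needed for mitosis. Its bGAL values ran from −1.74 to −0.90 and its Nkx6.1 values from 0.90 to 1.54, with no overlap (log2 difference 2.63 ± 0.22, SE, limma adjusted p = 0.00178). Because Vgf and Cdk1 both fell into 2 separate clusters by virus, no pooled correlation is given. With the group means removed, r was 0.19 over the 10 samples (exact permutation p = 0.687, adjusted over 4 partners 0.687) and Spearman's rho 0.0061 (exact permutation p = 1). Without replicate 2 it was −0.60 (exact permutation p = 0.139, n = 9). Within a group, a sample with more Vgf was thus not shown to have more Cdk1. In replicate 2, where Vgf stood 2.32 above the next sample of its group, Cdk1 was 1.54 and the next sample 1.44.

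**Figure D3:**
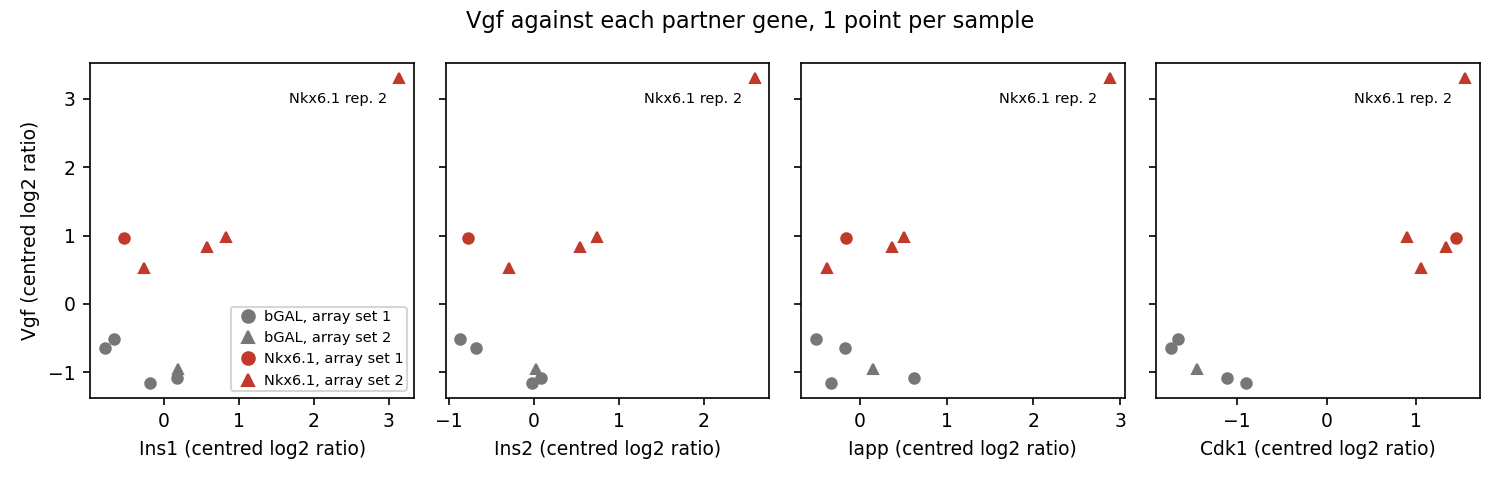
Vgf against Ins1, Ins2, Iapp and Cdk1, each axis in centred log2 ratio and each point 1 sample (grey, bGAL; red, Nkx6.1; circles, array set 1; triangles, array set 2). Nkx6.1 replicate 2 lies alone at the upper right for the 3 hormone genes, and for Cdk1 the 2 groups form separate clusters.

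Because the hormones and Vgf were both highest in replicate 2, Vgf was also set against them within each sample, a comparison added after the values were seen. Vgf minus the mean of Ins1, Ins2 and Iapp ran from −1.39 to 0.16 with the control virus and from 0.29 to 1.45 with Nkx6.1. The difference between groups was 1.34 on the log2 scale (5 samples a group) and 1.40 without replicate 2 (n = 5 and 4). Vgf alone already separated the groups, so this too is a description. Replicate 2 stood at 0.43 on this measure, inside its group. In bulk RNA, more cells of a type and more transcript per cell cannot be told apart.

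Other genes of granins, neuropeptides and prohormone processing were described through a list of 25 genes. Of these, 23 had a named probe and 20 had enough values to be tested; Cpe and Pam had no named probe, and Adcyap1, Tac1 and Pdyn had too few values. None passed with limma (0.15% over all genes), and 1 of 20 had an unadjusted p under 0.05 (9.65% over all genes). No member with 10 values had groups without overlap, beside 1.99% above and 1.82% below over all genes with 10 values. Neither absence departs much from the share over all genes. The median log2 difference was 0.26 with 13 of 20 higher, beside −0.052 and 4538 of 9974 higher over all genes tested. The granin genes chromogranin A (Chga), chromogranin B (Chgb), secretogranin 2 (Scg2) and secretogranin 3 (Scg3) had log2 differences of 0.29, −0.089, 0.22 and 0.13. Chga lay between −0.23 and 0.36 in the bGAL samples, between −0.36 and 0.40 in 4 Nkx6.1 samples and at 1.80 in replicate 2.

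The prohormone convertase genes Pcsk1 and Pcsk2, whose products cut granule precursors, had differences of 0.32 and 0.36, and their partner proteins Pcsk1n (proSAAS, an inhibitor of the first) and Scg5 (7B2, a chaperone of the second) had 0.47 and 0.39. The other convertases Furin, Pcsk5, Pcsk6 and Pcsk7 had −0.18, −0.34, −0.36 and −0.13. The carboxypeptidase D gene Cpd had 0.48 and the glutaminyl cyclase gene Qpct 0.82. Among neuropeptide genes, Npy had 0.51, galanin (Gal) 0.46, Cartpt −0.030 and proenkephalin (Penk) 0.063. Resp18, a granule protein gene of endocrine cells, had 0.56. Nucb2, the precursor of nesfatin, had the smallest p of the list, with −0.33 (limma unadjusted p = 0.049, adjusted p = 0.516).

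Replicate 2 decided many of these differences. Without it the median of the list was −0.11 and 3 of 20 members were higher, beside −0.026 and 4704 of 9971 over all genes. None of the 20 passed (0.361% over all genes in that fit), while Vgf did. Pcsk1n then differed by −0.11, Scg5 by −0.22, Resp18 by −0.043 and Npy by −0.063. Other members moved away from 0, with 0.92 for Cpd, 1.01 for Qpct and −0.58 for Pcsk5. Npy had been at 2.78 in replicate 2 and between −0.21 and 0.066 in the other 4 Nkx6.1 samples. In a comparison also added after the values were seen, Vgf minus the median of the 19 members with 10 values ran from −1.41 to −0.43 with the control virus and from 0.88 to 1.68 with Nkx6.1. The difference was 2.02, and 1.87 without replicate 2. Vgf alone already separated the groups, so this is given as a description.

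**Figure D4:**
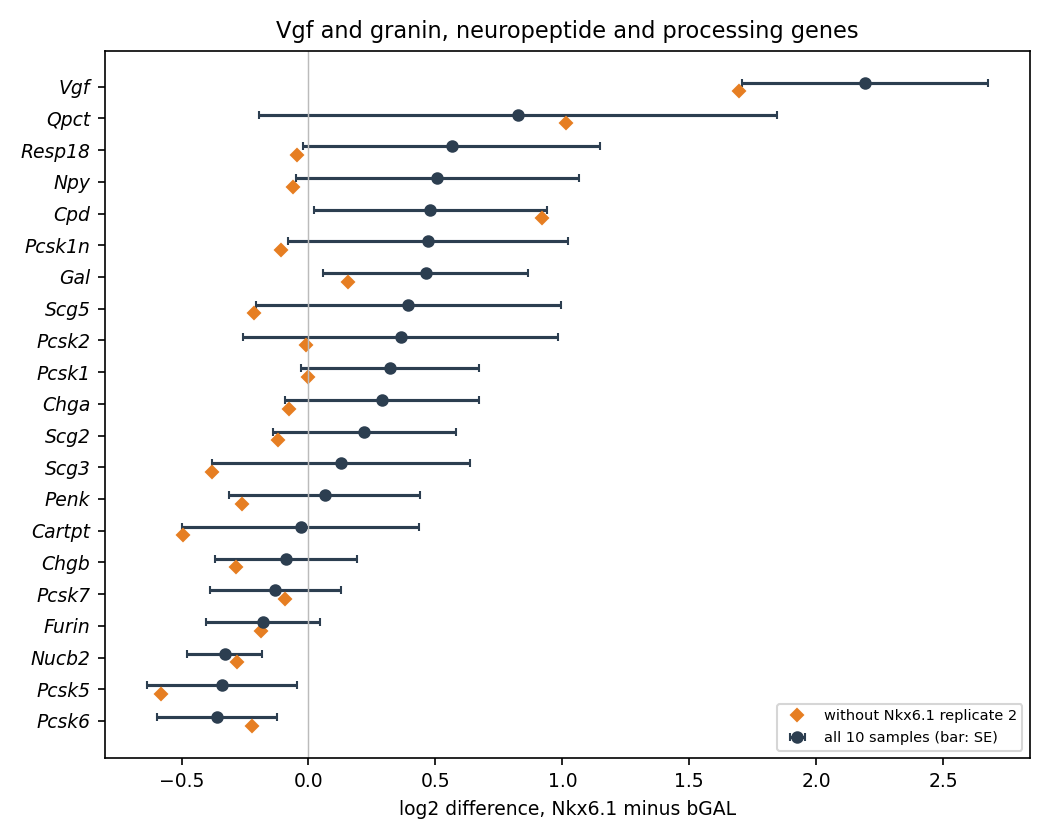
Log2 difference, Nkx6.1 minus bGAL, of Vgf and the 20 tested granin, neuropeptide and processing genes with all 10 samples (dark circles; bars, SE) and without Nkx6.1 replicate 2 (orange diamonds). Vgf is at 2.19 and 1.70, and the other genes lie between −0.36 and 0.82 with all samples.

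The other lists gave few calls. Of 32 granule docking and exocytosis genes, 20 were tested, 11 were higher and none passed with limma (0.15% over all genes). Of the 20, 3 had an unadjusted p under 0.05 (9.65% over all genes). Those with the smallest p were the granule GTPase gene Rab3a with a log2 difference of 0.77, the SNARE gene Snap25 with −4.55 ± 1.99 (SE, and −2.83 with the array set as a term) and the granule membrane phosphatase gene Ptprn2 with −2.83 ± 1.25 (SE). The bGAL values spread widely, from −0.39 to 9.98 for Snap25 and from −1.46 to 5.74 for Ptprn2. In the Nkx6.1 samples the ranges were −0.67 to −0.14 for Snap25 and −1.46 to 0.16 for Ptprn2. Of 8 islet hormone genes 4 were higher and none passed, and somatostatin (Sst) had the smallest p, with −1.09 (limma adjusted p = 0.574). Without replicate 2, where Sst stood at 2.12, it passed with −1.81 (limma adjusted p = 0.0112). Of 24 neuronal genes 14 were tested and 4 were higher, none past the threshold. Nefm, a neurofilament gene, differed by −11.8 ± 5.35 (SE) with bGAL values from −0.048 to 21.2, and by −2.65 ± 4.83 (SE) with the array set as a term. The difference was −0.61 for peripherin (Prph) and 0.49 for neuronal tubulin (Tubb3). Of 10 measured glucose sensing genes 3 were higher and none passed. The difference was −0.98 for the mitochondrial glycerol phosphate dehydrogenase Gpd2, 0.65 for the glucose transporter Slc2a2 and 1.24 for the calcium channel Cacna1d. Without replicate 2, where Cacna1d stood at 4.43, its difference was 0.47. Rab3a, Prph, Tubb3 and Cacna1d each had a floored probe, meaning that it repeats 1 value across at least 3 samples.

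Known regulators of Vgf and receptors of its peptides were listed separately. Of 28 such genes, 15 were tested and 6 were higher, with a median log2 difference of −0.34. None passed with limma (0.15% over all genes), and 1 had an unadjusted p under 0.05 (9.65% over all genes). The smallest p values belonged to the early response factor Egr1 (0.58, adjusted p = 0.515), the CREB-related factor Atf2 (−0.92, adjusted p = 0.527) and the chaperone Hspa8 (−0.47, adjusted p = 0.544). Creb1 differed by 0.17, and the complement receptor C3ar1, a receptor of a VGF peptide in rodents, by 0.071. Of 30 immediate early and CREB target genes, 23 were tested and 17 were higher, with a median of 0.31, beside 4538 of 9974 higher over all genes tested. Of the 23, 7 had an unadjusted p under 0.05 (9.65% over all genes). In 3, Dusp1, Fosl1 and Egr3, all Nkx6.1 values lay above all bGAL values (1.99% over genes with 10 values, floored probes included). Egr3 had a floored probe, and its lowest Nkx6.1 value was 1.2e-07 and its highest bGAL value −1.2e-07. Its groups thus met at the floor. In that list 1 gene passed (0.15% over all genes), Dusp1, a phosphatase of MAP kinases, with 1.18 ± 0.15 (SE, limma adjusted p = 0.0245), although not with the array set as a term (adjusted p = 0.286) or with any of 7 of the 10 samples left out (adjusted p = 0.0603 to 0.0919), namely bGAL replicates 1, 2, 3 and 5 and Nkx6.1 replicates 3, 4 and 5. Fosl1, an AP-1 subunit gene, had 0.76 (adjusted p = 0.256) and the nuclear receptor gene Nr4a1 had 0.82 (adjusted p = 0.418).

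The CRE of Vgf was compared with that of other genes whose promoter window holds the same 8 letters. The printed genes are Vgf and the members of the granule and early gene lists with a full CRE, with 30 bases around the element from RefSeq (GRCr8) and the CRE in capitals.
Vgf, chr12:25277092-25277121, minus strand: tgaatgaacatTGACGTCAatggggcgggg
Scg2, chr9:88256971-88257000, minus strand: ggctgagccggTGACGTCAgcgaggaatgc
Cartpt, chr2:32991359-32991388, minus strand: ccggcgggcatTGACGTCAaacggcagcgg
Dusp1, chr10:17184718-17184747, plus strand: ggcagggcgggTGACGTCAccacccggtca
Ier2, chr19:40399296-40399325, plus strand: tggcgtttcagTGACGTCActcttactcta
Crem, chr17:58984730-58984759, plus strand: tgataggctggTGACGTCActgtgatgtca

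With the same element, Vgf had a log2 difference of 2.19, Dusp1 1.18, Scg2 0.22, Cartpt −0.030, the early gene Ier2 −0.033 and the CRE modulator gene Crem, which has 2 such windows, −0.34. Only Dusp1 of these passed with all samples. Among the tested genes with a promoter window, the 230 with a full CRE had a median difference of −0.085 with 95 higher, and the 8026 without one had a median of −0.055 with 3645 higher. The 5 Nkx6.1 values lay above the 5 bGAL values for 1.33% of the former and 1.94% of the latter, beside 1.99% of all genes with 10 values. Genes with a full CRE in this window were thus no more often higher with Nkx6.1 than genes without one, in counts and with no test.

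Markers of the cell types that an islet pool can hold were examined beside Vgf. The mean of the 6 β-cell markers with 10 values lay between −0.23 and 0.38 in the bGAL samples, between −0.35 and 0.40 in 4 Nkx6.1 samples and at 1.36 in replicate 2. The 3 δ-cell markers were lower, with list means of 0.55 to 0.99 in the bGAL samples and −1.61 to −0.025 in the Nkx6.1 samples. Among them the homeobox gene Hhex (log2 difference −1.82, limma adjusted p = 0.0254) and the retinol carrier gene Rbp4 (−2.92, adjusted p = 0.0133) passed, beside 0.15% over all genes. Neither did with the array set as a term. Hhex lost the call with any of 6 samples left out (bGAL replicates 1, 2 and 3 and Nkx6.1 replicates 3, 4 and 5, limma adjusted p up to 0.0932), and Rbp4 with any of 5 (bGAL replicates 2 and 3 and Nkx6.1 replicates 3, 4 and 5, up to 0.0696). Rbp4 also lost it with quantile normalisation and with a common spread. The 5 macrophage and leukocyte markers were all lower, beside 5436 of 9974 over all genes tested, with none past the threshold. Csf1r and Ptprc had floored probes, and Ptprc had a log2 difference of 0.11 without replicate 2. The list means ran from −0.011 to 1.08 with the control virus and from −2.20 to −0.14 with Nkx6.1. For single genes with 10 values, 1.82% had all Nkx6.1 values below all bGAL values. The 5 acinar markers were all higher, beside 4538 of 9974 over all genes tested, with none past the threshold. Of these, Prss1, Ctrb1 and Pnlip had floored probes. The acinar list means overlapped (−0.27 to 0.41 and −0.28 to 1.89). The means of the α-cell, PP-cell, duct, endothelial, stellate and neural markers overlapped between groups too. Centred values do not show which markers are absent, and the part of cell makeup in the Vgf difference was not tested.

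Genes whose values ran most like those of Vgf were found by Pearson's r over the 10 samples among 5699 genes with 10 values and no floored probe, where a floored probe repeats 1 value across at least 3 samples. The points share arrays and the contrast between viruses, so r is a description. The 8 highest were Pttg1 (securin, r = 0.98), the interferon-induced chemokine Cxcl10 (0.98), the helicase subunit Mcm6 (0.98), Actrt3 (0.98), the apoptosis repressor Nol3 (0.96), the nuclear envelope protein Emd (0.96), the helicase subunit Mcm7 (0.96) and the decoy interleukin receptor Il1r2 (0.95). Pttg1 stood between −1.44 and −0.98 in the bGAL samples, between 0.98 and 1.37 in 4 Nkx6.1 samples and at 4.08 in replicate 2, so that, as for Vgf, the groups were apart and replicate 2 was highest. The log2 differences of the 8 genes ranged from 0.82 for Mcm7 to 2.98 for Pttg1, and none passed with all samples. Without replicate 2, Pttg1 (2.39, limma adjusted p = 0.00086), Mcm6 (0.86, adjusted p = 0.0216) and Nol3 (1.07, adjusted p = 0.0189) did, beside 0.361% of genes in that fit. The 8 genes were chosen for likeness to Vgf, whose groups were apart. A difference between viruses was thus built into the choice, and these calls are a description. Without replicate 2 the r of the 8 genes with Vgf was between 0.88 and 0.95, and none of them remained among the 8 most alike.

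With the group means removed, the 5 most alike genes were Inip (r = 0.99), Rbpjl (0.99), Smad2 (0.99), Tent2 (0.98) and Slc13a3 (0.98), all highest in replicate 2, where Tent2 reached 4.44. Inip is a partner of single-stranded DNA binding proteins, Rbpjl a transcription factor of acinar cells, Smad2 a signal transducer of TGF-β, Tent2 a poly(A) polymerase and Slc13a3 a dicarboxylate transporter. None of the 5 passed the threshold, and the differences of Rbpjl, Smad2 and Tent2 were −0.0046, −0.19 and −0.038 without replicate 2. Without replicate 2 but with the contrast between viruses kept, the 5 most alike genes, chosen after the values were seen, were Stmn1 (r = 0.97), Ckap2 (0.97), Pomp (0.96), Cox5a (0.96) and Cdkn3 (0.96). Over all 10 samples, their r with Vgf was 0.77 for Stmn1, 0.67 for Ckap2, −0.44 for Pomp, 0.45 for Cox5a and 0.87 for Cdkn3. Pomp stood at −1.33 in replicate 2. Of the 49 genes with r above 0.9 over all samples, 14 also had r above 0.9 without replicate 2.

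**Figure D5:**
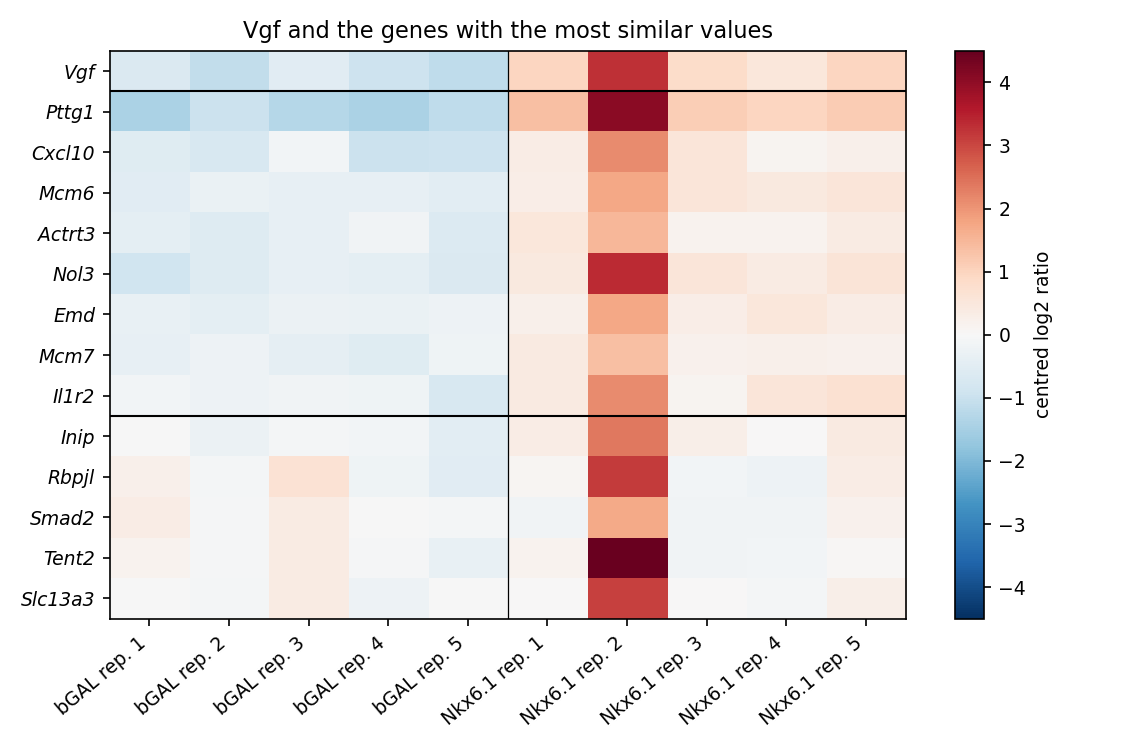
Centred log2 ratio (colour) of Vgf, of the 8 genes with the highest Pearson r with Vgf over 10 samples, and of the 5 genes with the highest r after removal of the group means, in each sample. The upper genes are low in bGAL and high in Nkx6.1, and the lower genes are high mainly in Nkx6.1 replicate 2.

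By p-value, the genes ranked next to Vgf moved in both directions. Just before it were Tram1l1 (log2 difference −2.14), the pericyte proteoglycan gene Cspg4 (0.97), the galactose enzyme gene Galt (0.998), the cytokine gene Ctf1 (1.16) and the p53 target Tp53inp1 (0.80). Just after it were the G protein regulator gene Rgs5 (1.06), the lysosomal enzyme gene Ppt1 (−0.78), complement factor B (Cfb, −1.57), cyclin A2 (Ccna2, 2.04) and the autotaxin gene Enpp2 (−1.01). Their SE lay between 0.17 for Ppt1 and 0.46 for Ccna2, and that of Vgf was 0.48, the largest of these 11 genes.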

How the data were processed

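The authors deposited 1 table of ratios, read here as log2, for 10 samples on 2-colour Operon rat 27K arrays. Per the labels' protocols, 500 ng of total RNA was amplified in 2 rounds and labelled with Cy5, with Cy3 rat reference RNA on every array and no dye swap. How background and dye effects were treated, and which probes were filtered, is stated in no source used here. All 17744 probes with 10 values had a median of 0 (tolerance 0.001), so scale and direction were inferred: among floored probes (the same value to 4 decimals in 3 or more samples), array set 2 averaged more than the floor for 6 of 7 exocytosis, 4 of 4 glucose sensing, 3 of 4 granin, 7 of 10 neuronal and 0 of 2 DNA replication probes, beside 4175 of 7805 over all floored probes, so this basis is weak. The number of arrays limits the precision. Array medians lay between −0.0028 and 3.6e-07, and no sample column was left unused.

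Control probes (22 of 26984) were left out. A single symbol was given for 15807 probes, several for 0 and none for 11155; 3713 symbols were updated through the GRCr8 RefSeq gene table. Values of several probes were averaged per gene, and genes with at least 3 values per group were fitted with limma 3.58.1 (two-sided, Benjamini-Hochberg, threshold 0.05) in R 4.3.3. Correlations used permutation tests, with 100000 resamples for 10 samples and exact enumeration for fewer or within groups. These and the figures used Python 3.11.15 with pandas 2.3.3, scipy 1.17.1, matplotlib 3.10.9 and numpy 2.4.6.

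On simulated data of 9974 genes, 12 of 100 genes changed by 1 and 53 of 100 changed by 2 on the log2 scale were called, with 5 false calls. The simulated noise was normal and independent between genes and samples, with 1 SD per gene. No array set effect, floor or sample of wider spread was built in, so the counts do not cover those features. Alternatives were quantile normalisation, a common spread, array weights, the array set as a term or random block, the replicate number as a block, other filters, and each sample left out. Same-numbered samples correlated at −0.0999 to 0.18 in their deviations from the group means, beside −0.24 to 0.25 for other pairs. The numbers were not taken as pairs. Under numbers 2, 3 and 5 the bGAL and Nkx6.1 samples were of different array sets, so these correlations cannot show that no isolation was shared. The gene, the lists and the rules were chosen with earlier results of these data known. Named were Vgf, its 4 partners, the granin list, the 8 genes most like Vgf and the 5 most alike without group means. So were the 5 neighbours on each side by p. Each other function list gave its 3 genes of smallest p and any past the threshold. Creb1, C3ar1, Egr3, Stmn1, Ckap2, Pomp, Cox5a and Cdkn3 were named after their values were seen. The planned adjustment over 4 pooled correlations covered 3, since none is given for Cdk1.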

Additional observations from a re-analysis of the deposited data

Results flagged for a closer look

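Vgf in Nkx6.1 replicate 2 (3.30) stood apart from the other 4 samples of its group (0.52 to 0.98), with a gap of 0.835 of the group's range, above Dixon's critical value of 0.71 for 5 samples. Chance flags about 1 in 20 groups, and among 130 groups of 5 values of the named genes 33 were flagged, 27 of them for Nkx6.1 replicate 2. Of these 27, 13 are genes chosen for their likeness to Vgf, which is itself extreme in that sample, so the count cannot be set against the chance rate.

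Among granule and hormone genes, that sample stood at 2.88 for Iapp, 1.62 for Scg2, 2.39 for Scg3, 2.94 for Scg5, 2.77 for Pcsk1n, 2.78 for Npy, 1.98 for Cartpt, 2.99 for Resp18 and 2.12 for Sst, each above the rest of its group. Among the genes most like Vgf it stood at 4.08 for Pttg1, 2.12 for Cxcl10, 1.74 for Mcm6, 1.48 for Actrt3, 3.36 for Nol3, 1.74 for Emd, 1.36 for Mcm7, 2.14 for Il1r2, 2.36 for Inip, 3.15 for Rbpjl, 1.71 for Smad2, 4.44 for Tent2 and 3.09 for Slc13a3. It also stood apart at −1.13 for Atf2, 0.98 for Nr4a1, 4.43 for Cacna1d and 0.99 for Galt.

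Other samples that stood apart were bGAL replicate 2 for Cpd (0.19), bGAL replicate 4 for Rab3a (0.25), Prph (−0.91) and Cacna1d (0.57), bGAL replicate 5 for Il1r2 (−0.71) and Nkx6.1 replicate 1 for Nefm (12.6). For Rab3a, Prph and Cacna1d the other 4 bGAL samples, all of array set 1, held nearly the same value, and bGAL replicate 4 was the only bGAL sample of array set 2.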

How the results depend on the processing

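The difference of Vgf stayed above 0 in every setting run, and its adjusted p was under 0.05 in 5 of 23. It passed with quantile normalisation (2.34), a common spread (2.01), array weights (1.69), and quantile normalisation without Nkx6.1 replicate 2 (1.89), and the exact permutation test (2.19) also gave a p under 0.05. With each sample left out it ranged from 1.70 to 2.39, and the lowest value, without Nkx6.1 replicate 2, was the one that passed. The replicate block (2.19, adjusted p = 0.553) changed no direction, and 3 of 10 samples correlated best with their own number. Against 15 genes past the threshold, 27 passed with quantile normalisation, 23 with a common spread, 577 with array weights, 3 with the array set as a term, 0 with the replicate block (limma, 811 at an unadjusted p under 0.05), and 2 to 36 with each sample left out. With the common spread, 21 rose and 2 fell, against 11 and 4, and with array weights 263 rose and 314 fell.

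The correlations with Ins1, Ins2 and Iapp no longer passed with quantile normalisation (0.63, 0.56 and 0.53), as Spearman's rho (0.42, 0.35 and 0.37), without the 2 samples farthest from the Vgf median (0.30, 0.28 and 0.0014), as deviations from group means (0.80, 0.74 and 0.85) or from array set means (0.68, 0.61 and 0.68). With each sample left out they ranged from 0.30 to 0.86, 0.22 to 0.85 and 0.13 to 0.84. The correlation with Cdk1 turned to −0.55 with quantile normalisation and −0.44 without the 2 farthest samples, and ranged from −0.60 to 0.33 with each sample left out. The median of the granin list ranged from −0.11 to 0.42 with each sample left out.

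Of 910 values of the 65 other named genes, 842 kept their direction and side of the threshold, 32 turned sign, 27 lost a call and 9 gained one. The lost calls were 9 for Dusp1, 9 for Rbp4, 8 for Hhex and 1 for Cdk1, the last with the replicate block (adjusted p = 0.286). Signs turned with quantile normalisation for Scg3 (−0.098) and Penk (−0.091), with a common spread for Scg3 (−0.20), Scg5 (−0.0015), Penk (−0.17) and Smad2 (−0.045), and with the array set as a term for Cartpt (0.12) and Prph (0.035). With each sample left out, sign changes gave ranges of −0.075 to 0.47 for Chga, −0.28 to 0.038 for Chgb, −0.12 to 0.39 for Scg2, −0.38 to 0.35 for Scg3, −0.22 to 0.65 for Scg5, −0.11 to 0.68 for Pcsk1n, −0.0013 to 0.54 for Pcsk1, −0.020 to 0.68 for Pcsk2, −0.17 to 1.39 for Qpct, −0.063 to 0.69 for Npy, −0.49 to 0.12 for Cartpt, −0.26 to 0.26 for Penk, −0.043 to 0.76 for Resp18, −0.0046 to 0.84 for Rbpjl, −0.19 to 0.28 for Smad2 and −0.038 to 1.11 for Tent2. The cause of these changes was not tested. Signal over background could not be examined, since the table holds ratios alone.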

Other observations

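Within the bGAL samples, the 2 samples with the highest Vgf, replicates 3 (−0.52) and 1 (−0.65), had the lowest Ins1, at −0.67 and −0.78, and the lowest Ins2, at −0.86 and −0.68. Replicates 4, 2 and 5 stood in the same order for Vgf (−0.95, −1.09 and −1.15) and Ins1 (0.19, 0.18 and −0.18). With 5 samples this is a description, and no test was made.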
